A study of Mus musculus with 8 samples.

Results

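The subject here is the interaction between activation of the kinase PERK and the gene Atf4 in mouse liver: whether AP20187 changed RNA levels by a different amount in Atf4-/- than in Atf4+/+ mice. The interaction needs every group of the study, so all 8 of its 8 arrays were used, 2 in each of 4 groups. It was taken for each probe set as the change with AP20187 in Atf4-/- minus the change with AP20187 in Atf4+/+, on log2(ratio + 0.1). The same number is the genotype difference (Atf4-/- minus Atf4+/+) among the AP20187 arrays minus the genotype difference among the untreated arrays, and this second form was used to see which pair of groups carried it. A value below 0 therefore says that Atf4-/- stood lower relative to Atf4+/+ with AP20187 than without.

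All 4 groups carried the Ttr::Fv2E-PERK transgene from a low expressing line (#58), in which a transthyretin promoter, active in hepatocytes, drives a PERK kinase domain that AP20187 brings together in pairs. The groups were untreated Atf4+/+, untreated Atf4-/-, AP20187 Atf4+/+ and AP20187 Atf4-/-, all siblings positive for the transgene in a mixed FvB/n and Swiss Webster background. No group lacked the transgene, and no Atf4+/- liver was among the 8 arrays. The dose of AP20187, the time after it and the age and sex of the mice are not given in the sources used here. Nothing in the labels says whether each array came from a different mouse, so a p-value here speaks only of how far these arrays scatter, which may be technical.

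The labels of the untreated arrays need care. Untreated Atf4+/+ replicate 1 is called untreated in its description only, since its source name gives the genotype and no treatment. Untreated Atf4-/- replicate 1 is Atf4-/- by its source name and Atf4+/+ by its description, and it was grouped by the source name, as were all arrays but the first. Atf4 itself, the gene deleted in the Atf4-/- mice, stood at ratios of 2.36 and 0.30 in the arrays labelled untreated Atf4+/+ (replicates 1 and 2) and at 0.29 and 1.67 in those labelled untreated Atf4-/-. With AP20187 the same probe set stood at 4.17 and 5.75 in Atf4+/+ and at 0.25 and 0.33 in Atf4-/-. The treated arrays thus followed their labels, while the second replicate of each untreated group stood against its label; which part of the gene the probe set covers was not examined. The main genes and the lists below are therefore also given without both of these untreated arrays, which leaves 1 untreated array per genotype. The untreated Atf4-/- array then left is replicate 1, the one whose description says Atf4+/+. Directions drawn from the untreated arrays thus rest on arrays whose labels are open to doubt.

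PERK is a kinase of the endoplasmic reticulum membrane that phosphorylates the translation factor eIF2 when unfolded proteins build up. That slows protein synthesis in general but lets the ribosome reach the coding sequence of Atf4 mRNA, and the ATF4 protein then switches on genes for amino acid synthesis and uptake, for charging transfer RNAs and for further stress regulators. This chain is called the integrated stress response.

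The table held 12488 probe sets of an Affymetrix mouse array, of which 12422 were left after 66 control probe sets were set aside. The values are ratios, so they carry no level of brightness and no depth, and the identity of the tissue could not be checked from the level of liver transcripts. The median difference between the 2 arrays of a group was between 0.265 and 0.387 on the log2 scale, and 14.2% of probe sets had a median ratio below 0.99 over the 8 arrays. The standard error of an interaction was 0.46 at the median over probe sets, against 0.32 for a difference between 2 groups.

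No probe set passed the interaction test at an adjusted p under 0.05 (0 of 12422, 0.0%; limma with Benjamini-Hochberg adjustment over all probe sets). The smallest adjusted p was 0.0666. At an unadjusted p under 0.05 there were 678 probe sets, 5.46% of those tested, where 5% would be 621.1. They divided into 339 below 0 (2.73%) and 339 above 0 (2.73%). Neither component of the interaction had a probe set past the adjusted threshold: 659 probe sets (5.31%) had an unadjusted p under 0.05 for the genotype difference with AP20187, and 661 (5.32%) for the untreated genotype difference. The number of genes with an unadjusted p under 0.05 was thus close to 5% of those tested, and every gene below is given by its values, with the unadjusted p used only to choose which to name.

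Each of the 678 was put on a side. An interaction was placed on the treated side where the genotype difference with AP20187 was at least 2 times as large as the untreated one, on the untreated side where the reverse held, and on both sides otherwise. Of the 339 below 0, 106 lay on the treated side (31.3%; 0.853% of all probe sets), 91 on the untreated side (26.8%) and 142 on both sides (41.9%). Of the 339 above 0, 85 lay on the treated side (25.1%), 103 on the untreated side (30.4%) and 151 on both sides (44.5%). Over all 12422 probe sets the shares were 31.3%, 29.2% and 39.5%, so the side taken by the 678 was close to that of any probe set. In the 106 of the treated side below 0, the median genotype difference was -1.29 with AP20187 and 0.23 without it. Their median change with AP20187 was 0.97 in Atf4+/+ and -0.65 in Atf4-/-, and the 2 changes had opposite signs in 80 of them.

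**Figure D1:**
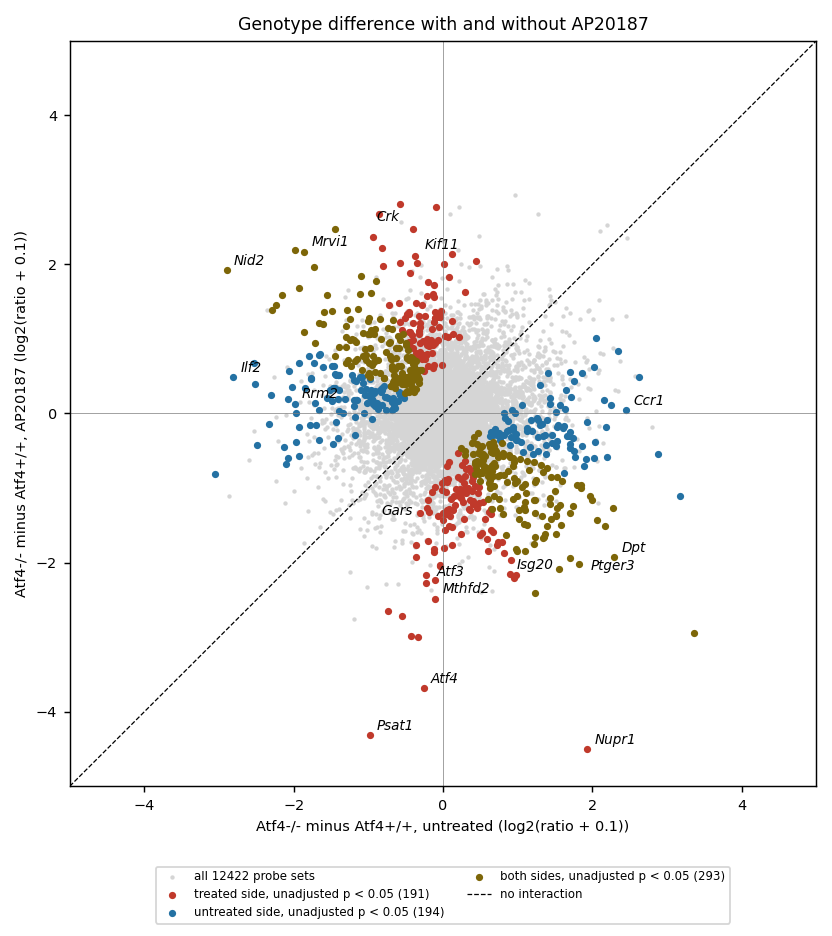
Each point is a probe set, with the untreated genotype difference on the x axis and the genotype difference with AP20187 on the y axis, both in log2(ratio + 0.1); the dashed line is an interaction of 0 and colours mark the side of the 678 probe sets with an unadjusted p under 0.05. Nupr1, Psat1 and Atf4 lie far down at genotype differences of -4.50, -4.32 and -3.69 with AP20187, while Ilf2 and Ccr1 lie near 0 on that axis, at 0.49 and 0.04, and far out on the other, at -2.81 and 2.45.

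The genes whose interaction came from the treated arrays and lay below 0 included several known targets of ATF4. Nupr1, a small nuclear stress protein, stood at ratios of 0.15 and 0.15 in untreated Atf4+/+, 0.45 and 1.55 in untreated Atf4-/-, 18.55 and 38.40 with AP20187 in Atf4+/+, and 2.54 and 0.43 with AP20187 in Atf4-/-. Both treated Atf4+/+ arrays were far above the other 6. Its interaction was -6.43 ± 1.22 (SE of the limma fit, unadjusted p 0.00153), the largest in size of all 12422 probe sets. The untreated component was 1.93, with both Atf4-/- arrays above both Atf4+/+ arrays, and without the 2 doubted untreated arrays the interaction was -5.64.

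Some enzymes of serine synthesis and folate metabolism lay on the same side. Psat1, which transfers the amino group in serine synthesis, stood at 18.70 and 23.45 in treated Atf4+/+ and at 0.69 and 1.31 in treated Atf4-/-, against 0.46 and 1.31 in untreated Atf4+/+ and 0.29 and 0.42 in untreated Atf4-/-. The groups overlapped among the untreated Atf4+/+ and treated Atf4-/- arrays and were far apart between the treated genotypes. Its interaction was -3.34 ± 0.71 (unadjusted p 0.00281). Psph, the phosphatase that completes serine synthesis, showed the pattern at a smaller size: 1.98 and 2.08 in treated Atf4+/+, 0.81 and 0.94 in treated Atf4-/-, 0.95 and 0.84 in untreated Atf4+/+ and 1.06 and 1.09 in untreated Atf4-/-. The Psph interaction was -1.37 ± 0.29 (unadjusted p 0.00251). Mthfd2, a mitochondrial enzyme of the folate cycle, stood at 6.79 and 6.43 in treated Atf4+/+ and at 1.01 and 1.19 in treated Atf4-/-, with 0.62 and 0.99 in untreated Atf4+/+ and 0.59 and 0.88 in untreated Atf4-/-. Its interaction was -2.38 ± 0.42 (unadjusted p 0.00104), but its other probe set went the other way, at 1.35. Without the 2 doubted untreated arrays the interactions of Psat1, Psph and Mthfd2 were -3.80, -1.27 and -2.43. These 3 were the members with an unadjusted p under 0.05 among 11 measured genes of amino acid and one-carbon synthesis. All 3 were below 0 (27.3% of the list, against 2.73% of all probe sets). That list as a whole had 7 genes below 0 (63.6%, against 46.6% of all probe sets) and 4 above. Its median interaction was -0.09 and ran from -0.32 to 0.0053 when 1 array was left out (0.0053 without untreated Atf4+/+ replicate 2). The median was -0.067 without both doubted arrays. Phgdh, which begins serine synthesis, was at 0.39 ± 0.45 and Shmt2, which passes the carbon of serine to folate in mitochondria, at 0.03 ± 0.34.

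Atf3, a transcription factor of the same family as ATF4, had higher ratios with AP20187 than without in both genotypes. Psat1 and Mthfd2 did so too, with a smaller rise in Atf4-/-. It stood at 0.28 and 0.15 in untreated Atf4+/+, 0.14 and 0.19 in untreated Atf4-/-, 7.37 and 16.59 in treated Atf4+/+ and 1.72 and 2.82 in treated Atf4-/-. The treated Atf4-/- arrays were above all 4 untreated arrays and below both treated Atf4+/+ arrays. The Atf3 interaction was -2.05 ± 0.65 (unadjusted p 0.0182), and its other probe sets gave -2.13 and 0.00. Trib3, a pseudokinase that binds ATF4, behaved alike at 3.78 and 12.75 against 1.80 and 1.73 with AP20187, from 0.06 and 0.09 against 0.03 and 0.27 without, giving -2.25 ± 0.95 (unadjusted p 0.0534). Ddit3, which encodes the transcription factor CHOP, stood at 3.12 and 5.95 against 1.70 and 2.52 with AP20187 and at 0.09 and 0.21 against 0.30 and 0.11 without. Its interaction was -1.28 ± 0.68 (unadjusted p 0.105). For Atf3, Trib3 and Ddit3 the values without the doubted arrays were -1.61, -1.62 and -2.10.

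Among 21 measured genes of the enzymes that load amino acids onto transfer RNAs, 14 lay on the treated side (66.7%, against 31.3% of all probe sets). Of the rest, 1 lay on the untreated side (4.8%, against 29.2%) and 6 on both sides. The interaction was below 0 for 16 (76.2%, against 46.6% of all probe sets) and above 0 for 5, Kars, for lysine, being at 1.29 ± 0.93. At an unadjusted p under 0.05 there were 3 (14.3%, against 2.73% of all probe sets), all below 0. Gars, for glycine, stood at 2.27 and 2.39 in treated Atf4+/+ and 1.09 and 0.89 in treated Atf4-/-, against 1.10 and 0.91 and 0.90 and 0.82 in untreated Atf4+/+ and Atf4-/-. Its interaction was -0.96 ± 0.31 (unadjusted p 0.0186), and both treated Atf4+/+ arrays were above all 6 others. Lars, for leucine, stood at 1.69 and 2.68 against 1.06 and 0.83 with AP20187 and at 0.91 and 0.88 against 1.0 and 1.0 without, an interaction of -1.25 ± 0.39 (unadjusted p 0.0167). Cars, for cysteine, had the third interaction of the group, -2.55 ± 1.05 (unadjusted p 0.049), from 5.21 and 5.23 against 0.56 and 0.58 with AP20187. Its untreated ratios, 3.0 and 0.52 in Atf4+/+ and 0.60 and 1.40 in Atf4-/-, put the same arrays high and low as those of Atf4 did. Without the 2 doubted arrays the Cars interaction was -0.84 and that of Atf4 was -1.03, while Gars and Lars were at -0.90 and -1.23. With all arrays the Atf4 interaction was -3.43 ± 1.39 (unadjusted p 0.0466). Nars, for asparagine, lay just outside the unadjusted threshold at -0.77 ± 0.34 (unadjusted p 0.0626).

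Among carriers of amino acids, Slc1a4, which takes up alanine, serine and cysteine, stood at 2.07 and 2.20 in treated Atf4+/+ and 1.11 and 0.96 in treated Atf4-/-, against 1.01 and 0.86 and 0.74 and 0.99 without AP20187. Its interaction was -0.87 ± 0.33 (unadjusted p 0.035), or -0.58 without the doubted arrays. Slc3a2, the heavy chain shared by several amino acid exchangers, lay on both sides at -0.77 ± 0.32 (unadjusted p 0.0493), with genotype differences of -0.38 with AP20187 and 0.39 without. Asns, asparagine synthetase, was measured by 2 probe sets that differed in size: -0.92 ± 0.47 (unadjusted p 0.097) and -3.64, the second with an adjusted p of 0.243 and an untreated component of 1.70. With the doubted pair left out, Slc3a2 was at -0.70 and the first Asns probe set at -1.06. The 16 measured amino acid transporters had 9 genes below 0 (56.2%, against 46.6% of all probe sets) and 7 above. Their median was -0.08, ran from -0.42 to 0.09 when 1 array was left out and was -0.34 without both doubted arrays. The 4 transporters at an unadjusted p under 0.05 were all below 0 (25%, against 2.73% of all probe sets). The larger of these were not Slc1a4 or Slc3a2. Slc1a1, a glutamate carrier, lay on the untreated side at -2.29 ± 0.67 (unadjusted p 0.0129), from 0.71 and 0.19 against 1.87 and 1.46 without AP20187. The other Slc1a1 probe set went the other way, at 0.82, with an untreated genotype difference of -0.77. Slc7a7, which exports basic amino acids, lay on the treated side at -2.26 ± 0.77 (unadjusted p 0.0241), where treated Atf4-/- stood at 0.88 and 0.21. With both doubted arrays set aside, they were at -1.71 and -2.39.

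**Figure D2:**
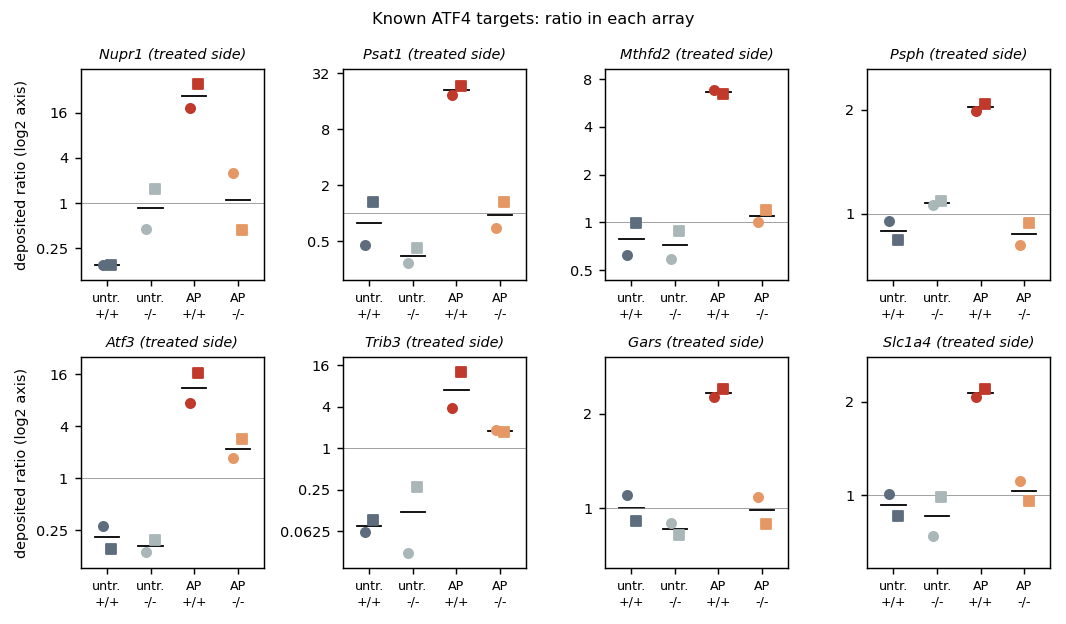
Deposited ratio (log2 axis) of 8 known ATF4 targets in each array; circles are replicate 1, squares replicate 2, and the bar is the group mean of log2(ratio + 0.1) turned back to a ratio. In all 8 panels the 2 treated Atf4+/+ arrays are the highest, and in Atf3, Trib3 and Mthfd2 the treated Atf4-/- arrays stand above all untreated arrays as well.

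A gene list of known ATF4 targets, taken from the literature on other cells, gives the whole group. Of its 50 genes 42 were measured. Both treated Atf4-/- arrays lay below both treated Atf4+/+ arrays for 25 of the 42 (59.5%), against 15.3% of all probe sets, and above them for 2 (4.8%), against 19.2%. Without AP20187 the same separation held downward for 23.8% of the list, against 16.4% of all probe sets, and upward for 11.9%, against 15.5%. The interaction was below 0 for 29 of 42, against 46.6% of all probe sets, and 9 of the 42 (21.4%) had an unadjusted p under 0.05, all 9 below 0, against 2.73%. On the treated side lay 23 members (54.8%, against 31.3% of all probe sets) and on the untreated side 11 (26.2%, against 29.2%). The median interaction was -0.44, made of -0.44 with AP20187 and -0.11 without; over all probe sets the median was 0.04. Leaving out 1 array at a time gave list medians from -0.54 to -0.34, and leaving out both doubted arrays gave -0.51.

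The median change of the 42 with AP20187 was 0.89 in Atf4+/+ and 0.38 in Atf4-/-, so at the median a share of the change was still measured in the Atf4-/- arrays. Stress regulators, a list of 17 measured genes with transcription factors and signalling proteins of this response, had a median interaction of -0.61, with -0.66 among the treated arrays and -0.12 among the untreated. The mean log2 ratio of the list was 1.16 and 1.5 in treated Atf4+/+, 0.35 and 0.29 in treated Atf4-/-, and between -0.70 and -0.41 in the 4 untreated arrays. In the fit without both doubted arrays, the list's median was -0.67. Transfer RNA synthetases had a median of -0.30 over 21 genes, 14 of them (66.7%, against 15.3% of all probe sets) with both treated Atf4-/- arrays below both treated Atf4+/+ arrays. That list's median was -0.17 without AP20187 Atf4+/+ replicate 2 and -0.51 without replicate 1 of the same group, and -0.36 without both doubted arrays. The direction of these 3 lists was the same under quantile normalization, median centring and cyclic loess. The lists are not separate from each other, since many stress regulators and several synthetases are also on the list of known targets. Atf4, the deleted gene, is itself a member of the stress regulators and enters their means.

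For other genes of the response the genotypes lay close together with AP20187, or the interaction was above 0. Igfbp1, a secreted binding protein for insulin-like growth factors, stood at 1.83 and 1.89 in treated Atf4+/+ and 1.57 and 2.12 in treated Atf4-/-, against 0.33 and 0.43 and 0.30 and 0.39 without AP20187. The treated genotypes overlapped, and the interaction was 0.08 ± 0.35, with a 95% interval from -0.77 to 0.94. The other Igfbp1 probe set gave 0.60. Atf5, a transcription factor related to ATF4, stood at 2.27 and 1.72 against 2.35 and 1.53 with AP20187, with an interaction of 0.65 ± 0.68 that came from 1 untreated Atf4-/- array at 0.11. Ddit4, an inhibitor of the kinase mTOR, had 5.49 and 1.35 in treated Atf4+/+ around 2.11 and 2.71 in treated Atf4-/-, and its interaction was -0.61 ± 0.87. Slc7a11, the cystine carrier, went the other way from Slc1a4 at 1.56 ± 1.16 with its difference among the untreated arrays. Aldh18a1, an enzyme of proline synthesis, also lay above 0 at 1.04 ± 0.52, with untreated ratios of 1.17 and 1.47 in Atf4+/+ and 0.25 and 0.43 in Atf4-/-. The other Aldh18a1 probe set gave 1.06 from the treated side, with genotype differences of 1.17 with AP20187 and 0.11 without. Eif2ak3, the gene of the mouse's own PERK, was at -0.19 ± 0.56. Without the doubted arrays Igfbp1, Atf5, Ddit4, Slc7a11, Aldh18a1 and Eif2ak3 were at 0.08, 1.38, -0.16, 2.28, 1.18 and -0.92.

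Promoters of the treated-side genes were searched for the composite letters to which ATF4 is known to bind together with C/EBP proteins, TGATGNAA on one strand and TTNCATCA on the other, N being any base. The window ran from 250 bases before to 50 bases after the start in RefSeq (GRCm38.p6), for genes with a single listed promoter. The motif was in 6 of 49 such genes (12.2%) on the treated side below 0: Nupr1, Atf3, Gars, Slc1a4, Fgl2 and Prune1. The first 4 are also on the list of known targets. It was in 129 of 5264 measured genes (2.45%) and in 956 of all 22862 promoters of this length (4.18%). On the other sides it was in 1 of 36 genes for untreated below 0, in 0 of 48 for both sides below 0, in 0 of 34 for treated above 0, in 0 of 47 for untreated above 0 and in 3 of 61 for both sides above 0. Of the known ATF4 targets, 10 of 29 (34.5%) held it. A match describes letters in a window and is not a measured binding site.

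Below are 150 bases ahead of the start of 4 genes, chosen to set the motif beside the values above, in the direction of the gene with the motif in capitals. They lie at chr7:126625471-126625620 (minus strand, Nupr1), chr1:191183334-191183483 (minus strand, Atf3), chr6:55037851-55038000 (plus strand, Gars) and chr6:7693210-7693359 (minus strand, Asns), all in GRCm38.p6.
Nupr1: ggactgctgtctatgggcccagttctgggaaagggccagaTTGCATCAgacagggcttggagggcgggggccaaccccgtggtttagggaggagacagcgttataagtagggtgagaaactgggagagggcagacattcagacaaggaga
Atf3: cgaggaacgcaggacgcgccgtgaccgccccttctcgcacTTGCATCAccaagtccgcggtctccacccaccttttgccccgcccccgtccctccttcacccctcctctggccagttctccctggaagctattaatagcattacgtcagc
Gars: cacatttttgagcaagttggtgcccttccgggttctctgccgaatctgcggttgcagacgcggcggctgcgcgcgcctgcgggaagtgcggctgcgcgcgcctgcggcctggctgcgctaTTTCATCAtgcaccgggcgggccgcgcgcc
Asns: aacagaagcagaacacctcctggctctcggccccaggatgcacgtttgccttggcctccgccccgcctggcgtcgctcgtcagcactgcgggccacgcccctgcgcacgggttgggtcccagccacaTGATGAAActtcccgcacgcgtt
The motif began 110 bases before the start in Nupr1 and in Atf3, with the same 8 letters, 30 bases before it in Gars and 23 bases before it in Asns. Psph, Mthfd2, Ddit3 and Slc3a2 had no match in this window.

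Other genes of the treated side below 0 were on none of the lists of the stress response. S100a4, a calcium binding protein of motile cells, stood at 1.30 and 1.21 in treated Atf4+/+ and 0.34 and 0.26 in treated Atf4-/-, against 0.71 and 1.15 and 0.85 and 1.15 without AP20187. Here the treated Atf4-/- arrays were the low ones and the other 6 lay together, and the interaction was -1.88 ± 0.41 (unadjusted p 0.00335). Golim4, a Golgi membrane protein, had the form of Psph, at 1.87 and 1.99 against 0.92 and 0.84 with AP20187 and at 1.0 and 0.75 against 1.05 and 1.0 without, for an interaction of -1.27 ± 0.31 (unadjusted p 0.00564). Isg20, an interferon-induced exonuclease, stood at 2.87 and 2.73 against 0.64 and 0.47 with AP20187, with an interaction of -3.05 ± 0.63 (unadjusted p 0.00245). Lyst, a regulator of lysosome size, gave -3.16 ± 0.68 from 1.5 and 2.25 against 0.45 and 0.22. Both Isg20 and Lyst had an untreated component of opposite sign, at 0.89 and 0.95. With the doubted pair left out, these 4 interactions were -2.0, -1.12, -3.11 and -3.63.

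On the treated side above 0, the treated Atf4+/+ arrays were often the low ones. Crk, an adaptor protein of growth factor signalling, stood at 0.10 and 0.13 in treated Atf4+/+ and between 0.89 and 1.37 in the other 6 arrays (1.24 and 0.97 in treated Atf4-/-). Its interaction was 2.88 ± 0.32 (adjusted p 0.209). Kif11, a motor protein of the mitotic spindle, had the same form, with 0.18 and 0.20 in treated Atf4+/+ and 1.32 and 1.0 in treated Atf4-/-, against 1.17 and 1.35 and 1.0 and 0.90 without AP20187. Its interaction was 2.48 ± 0.32 (adjusted p 0.247). Tal2, a transcription factor of blood cell lineages, followed with 0.25 and 0.28 against 1.32 and 0.92 with AP20187, and an interaction of 1.84 ± 0.40 (unadjusted p 0.00326). In these 3 genes no array of the other 3 groups came as low as the treated Atf4+/+ arrays, and the values without the doubted arrays were 2.91, 2.32 and 1.96.

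Cyp1a1, a cytochrome P450 switched on through the aryl hydrocarbon receptor, reached its interaction from the treated Atf4-/- arrays instead. They stood at 4.82 and 2.27, while treated Atf4+/+ stood at 0.71 and 0.79 and the untreated arrays between 0.88 and 1.10. The interaction was 1.99 ± 0.52 (unadjusted p 0.00748), but the other Cyp1a1 probe set gave -0.58. Clps and Omt2b, at 1.82 ± 0.38 and 1.33 ± 0.27, and Dnase1l2, at 1.43 ± 0.38, also had the treated Atf4-/- arrays as the highest 2 of the 8. With both doubted arrays set aside, Cyp1a1, Clps, Omt2b and Dnase1l2 were at 2.04, 1.62, 1.24 and 1.12. Clps encodes the colipase of the exocrine pancreas. Of that tissue's marker list 6 genes were measured, 1 of them (Cela1) with an unadjusted p under 0.05 (16.7%, against 2.73% of all probe sets above 0). The interaction was above 0 for 3 (50%, against 53.4% of all probe sets), and the list's part in the Clps value was not tested.

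The bile acid genes went both ways: 6 of 11 lay above 0 (53.4% of all probe sets did) and 5 below. On the treated side above 0 were 3 enzymes of synthesis with the smallest p of the list. Hsd3b7, an early enzyme of bile acid synthesis, stood at 0.70 and 0.56 in treated Atf4+/+ and 1.27 and 1.06 in treated Atf4-/-, against 1.09 and 1.12 and 0.95 and 0.92 without AP20187, and its interaction was 1.01 ± 0.30 (unadjusted p 0.0142). Cyp7b1, the hydroxylase of the alternative bile acid pathway, gave 0.97 ± 0.37 (unadjusted p 0.0394) and 1.05 in its other probe set. Cyp8b1, which makes the precursor of cholic acid, stood at 0.27 and 0.29 in treated Atf4+/+, at 0.47 and 1.0 in treated Atf4-/- and between 1.0 and 1.64 without AP20187. Its interaction was 1.24 ± 0.53 (unadjusted p 0.0565). In all 3 genes both treated Atf4+/+ arrays lay below both treated Atf4-/- arrays, and without the doubted arrays they were at 0.98, 1.2 and 0.86. Of the 11, 8 were on the treated side (72.7%, against 31.3% of all probe sets), but 3 of these lay below 0: Cyp7a1, the rate-limiting enzyme, at -0.42, Nr1h4, the bile acid receptor, at -0.33 and Baat, which joins bile acids to amino acids, at -0.10, named after their values were seen. The median interaction of the list was 0.37, and 0.41 without both doubted arrays. It was 0.81 without AP20187 Atf4+/+ replicate 1 and 0.28 without replicate 2, whose mean log2 ratio over the list, -0.42, was the lowest of the 8 arrays.

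The same array was low for several other functions of the liver. The respiratory chain had a median interaction of 0.25 over 36 genes, which was 0.0035 without AP20187 Atf4+/+ replicate 2 and 0.48 without replicate 1 of that group. For the urea cycle and amino acid breakdown the median was 0.26 over 22 genes, 0.06 without replicate 2 and 0.45 without replicate 1, and for coagulation and complement it was 0.28 over 21 genes, 0.10 without replicate 2 and 0.52 without replicate 1. The coagulation list was also at 0.45 and 0.16 without untreated Atf4-/- replicates 1 and 2, and the respiratory chain at 0.16 without untreated Atf4+/+ replicate 1, 0.14 without untreated Atf4-/- replicate 2 and 0.15 without AP20187 Atf4-/- replicate 2. For the respiratory chain, the urea cycle list and the coagulation list, the medians without both doubted arrays were 0.24, 0.32 and 0.22. In the same order, 75%, 81.8% and 90.5% of genes lay above 0, against 53.4% of all probe sets. Both treated Atf4-/- arrays lay above both treated Atf4+/+ arrays for 22.2%, 40.9% and 42.9%, against 19.2% of all probe sets. They lay below them for 0%, 4.5% and 9.5%, against 15.3%. The mean log2 ratio of the hepatocyte markers was -0.25 in AP20187 Atf4+/+ replicate 2 and between 0.08 and 0.31 in the other 7 arrays. Their median did not set that array apart from replicate 1 of its group. It was -0.029 in both, and between 0.12 and 0.31 in the untreated and the treated Atf4-/- arrays. Both Atf4-/- arrays lay above both Atf4+/+ arrays for 54.5% of these markers with AP20187, against 19.2% of all probe sets. Without AP20187 that share was 45.5%, against 15.5%. Some of these markers are also on the urea cycle list, and their part in the list medians above was not tested. In bulk tissue, fewer hepatocytes and less RNA per hepatocyte cannot be told apart. ER chaperones, the folding helpers of the endoplasmic reticulum, had a median of 0.37 over 20 genes that became -0.10 without untreated Atf4-/- replicate 2, 0.64 without replicate 1 of that group and -0.10 without both doubted arrays. Among the treated arrays, both Atf4-/- lay above both Atf4+/+ for 55% of the chaperones, against 19.2% of all probe sets, and below for 5%, against 15.3%. The proteasome list was at 0.26 over 30 genes with 26 above 0 (86.7%, against 53.4% of all probe sets). Its median ran from 0.23 to 0.44 when 1 array was left out, the highest without AP20187 Atf4+/+ replicate 1, and was 0.27 without both doubted arrays.

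By the rule, the genes of the untreated side had the larger genotype difference among the untreated arrays; both treated Atf4-/- arrays still stood apart from both treated Atf4+/+ arrays in 24 of the 91 below 0 and 35 of the 103 above 0. Ilf2, an RNA binding protein, stood at 1.57 and 1.01 in untreated Atf4+/+ and 0.08 and 0.11 in untreated Atf4-/-, against 0.99 and 0.59 and 1.07 and 1.16 with AP20187. Its interaction was 3.29 ± 0.45 (unadjusted p 0.000252). Rrm2, the small subunit of ribonucleotide reductase, stood at 1.14 and 1.31 against 0.26 and 0.21 without AP20187 and between 0.94 and 1.19 in all 4 treated arrays. Its interaction was 2.11 ± 0.31 (unadjusted p 0.000368). Rrm1, the large subunit of the same enzyme, lay on the same side at 1.60 ± 0.62 (unadjusted p 0.0392), with -0.36 in its other probe set. In Ilf2 and Rrm2 the 2 untreated Atf4-/- arrays stood apart from the other 6 at the low end.

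Yme1l1, a protease of the inner mitochondrial membrane, stood at 0.12 and 0.19 in untreated Atf4-/- and between 0.85 and 1.36 elsewhere, for an interaction of 2.18 ± 0.37. Its other probe set gave 0.38. Ucp3, a mitochondrial uncoupling protein of muscle, stood at 0.36 and 0.31 in untreated Atf4-/- and between 0.86 and 1.64 elsewhere, for 1.85 ± 0.37. In the fit without both doubted arrays, Ilf2, Rrm2, Rrm1, Yme1l1 and Ucp3 were at 3.70, 1.91, 1.74, 2.18 and 1.48. The list of cell division genes, to which Rrm1, Rrm2 and Kif11 belong, had a median of 0.09 over 29 genes, with these 3 the ones at an unadjusted p under 0.05 and all 3 above 0 (10.3%, against 2.73% of all probe sets). The list's median ran from -0.018 without AP20187 Atf4-/- replicate 2 to 0.35 without replicate 1 of the same group, and was 0.17 without both doubted arrays.

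In the opposite direction, Ccr1, a chemokine receptor of myeloid cells, stood at 2.98 and 4.08 in untreated Atf4-/- and between 0.50 and 0.62 in the other 6 arrays. Its interaction was -2.41 ± 0.34 (unadjusted p 0.000286). Il5ra, the interleukin 5 receptor of eosinophils, stood at 0.73 and 1.27 in untreated Atf4-/- and between 0.09 and 0.28 elsewhere, for -2.51 ± 0.50 (unadjusted p 0.00204). In both, the untreated Atf4-/- arrays stood apart at the high end. The neutrophil and eosinophil markers had mean log2 ratios of 0.28 and 0.23 in untreated Atf4-/- and between -0.36 and -0.17 in the other 6 arrays, but these means hold Il5ra and Ccr3, the 2 of 12 markers at an unadjusted p under 0.05 (16.7%, against 2.73% of all probe sets below 0). The medians over the markers overlapped, at 0.16 and 0.33 in untreated Atf4-/- and -0.11 and 0.17 in untreated Atf4+/+. Of the 12 markers 7 lay below 0 (58.3%, against 46.6% of all probe sets) and 5 above, with a median interaction of -0.16. The list's part in the values of Ccr1 and Il5ra was not tested. Adra2c, an adrenergic receptor, Meox1, a homeobox factor, and Myo1e, a myosin, gave -1.45 ± 0.38, -1.31 ± 0.35 and -2.14 ± 0.58. In Adra2c and Meox1 the untreated Atf4+/+ arrays were the lowest of the 8, and in Myo1e the untreated Atf4-/- arrays were the highest. Without the doubted arrays Ccr1, Il5ra, Adra2c, Meox1 and Myo1e were at -2.32, -2.03, -1.52, -1.48 and -2.58.

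MHC class II genes, which present antigen on immune cells, lay below 0 for 9 of 11 (81.8%, against 46.6% of all probe sets) with a median of -0.70. The untreated component was 0.76 and the treated component -0.02. Both untreated Atf4-/- arrays were above both untreated Atf4+/+ arrays for 54.5% of the list, against 15.5% of all probe sets. With AP20187 both Atf4-/- arrays were below both Atf4+/+ arrays for 36.4%, against 15.3%, and above them for 0%, against 19.2%. H2-DMb1, which helps load peptides, stood at 0.30 and 0.60 in untreated Atf4+/+ and 1.79 and 0.90 in untreated Atf4-/-, with 1.33 and 1.49 and 1.10 and 0.80 with AP20187; it was the list's 1 gene at an unadjusted p under 0.05 (-1.91 ± 0.58, p 0.015). Cd74, the invariant chain, was at -1.15 ± 0.57. With the doubted pair left out, H2-DMb1 and Cd74 were at -2.78 and -1.99. The list's median was -1.13 and -1.15 without AP20187 Atf4+/+ replicate 1 or 2, -0.63 without the doubted arrays and -0.27 with untreated Atf4-/- replicate 1 grouped by its description. Macrophage and monocyte markers had a mean log2 ratio of 0.33 in untreated Atf4-/- replicate 1 and between -0.05 and 0.20 in the other 7 arrays, and their part was not tested.

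Cholesterol synthesis was the list with the highest median, 0.91, and all 16 measured genes lay above 0, against 53.4% of all probe sets. The untreated component was -0.67 and the treated component 0.29. Msmo1, a sterol oxidase, stood at 1.65 and 3.36 in untreated Atf4+/+ and 0.86 and 1.30 in untreated Atf4-/-, and at 0.94 and 0.42 against 1.01 and 0.99 with AP20187, giving 1.67 ± 0.65 (unadjusted p 0.041). It was the list's 1 gene at an unadjusted p under 0.05; Mvd was at 1.46 ± 0.63 and Hmgcs1, the synthase ahead of the rate-limiting step, at 1.26 ± 0.64. The mean log2 ratio of the list was 1.21 in untreated Atf4+/+ replicate 2, one of the doubted arrays, and -0.68 in AP20187 Atf4+/+ replicate 2, with the other 6 arrays between -0.06 and 0.31. The median interaction was 0.50 without the first of these and 0.52 without the second, 1.44 without untreated Atf4+/+ replicate 1, and 0.42 without both doubted arrays. Msmo1, Mvd and Hmgcs1 were then at 1.45, 1.44 and 0.84.

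**Figure D3:**
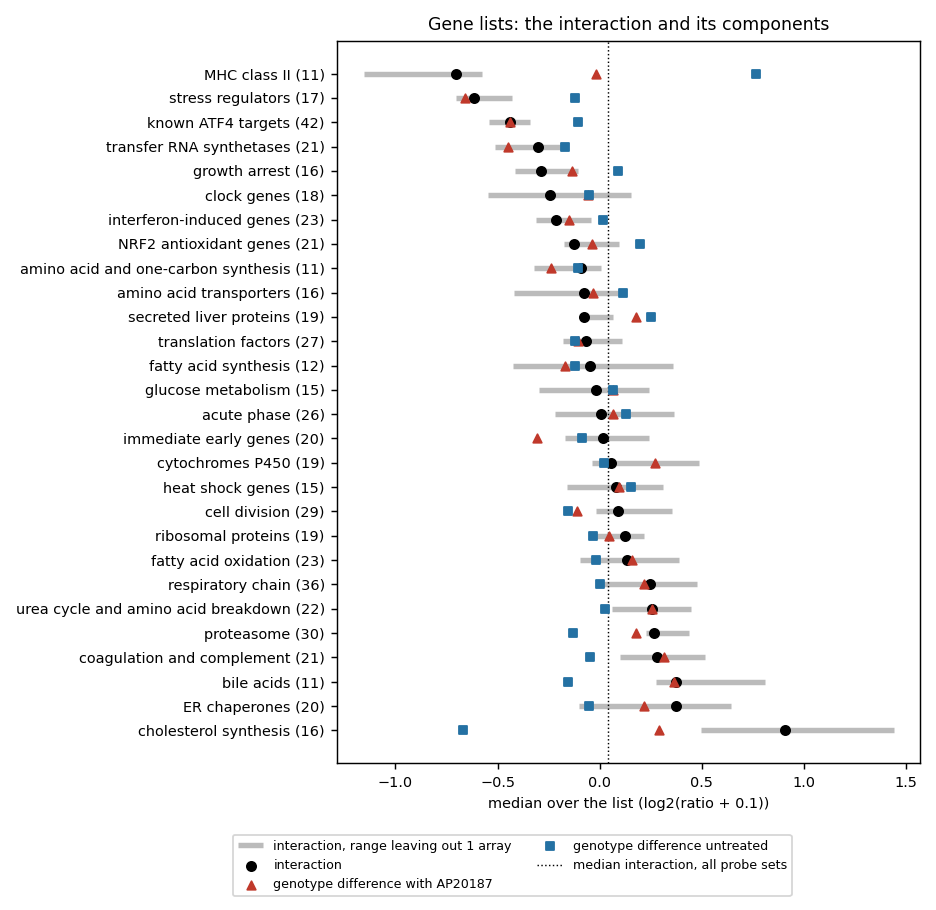
Median over the measured genes of each list (number in brackets) of the interaction and of its components, in log2(ratio + 0.1), with the range of the interaction median when each of the 8 arrays is left out. In the ATF4 targets the median sits with the AP20187 component (-0.44 against -0.11 untreated), while in MHC class II and cholesterol synthesis the untreated component, 0.76 and -0.67, is the larger.

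The smallest p-values of the interaction belonged to genes on both sides, whose genotype difference turned round between the untreated and treated arrays. Mrvi1, a protein of smooth muscle relaxation, stood at 1.57 and 1.87 in untreated Atf4+/+ and 0.43 and 0.37 in untreated Atf4-/-, and at 0.31 and 0.32 in treated Atf4+/+ and 1.74 and 1.80 in treated Atf4-/-. Its interaction was 4.03 ± 0.29 (adjusted p 0.0666). Dpt, a protein of the extracellular matrix, was its mirror image, at 0.35 and 0.44 against 2.0 and 2.67 without AP20187 and 1.57 and 1.56 against 0.30 and 0.38 with it, for -4.22 ± 0.34 (adjusted p 0.0692). In both genes the arrays lay in 2 bands with no overlap, and each band held 1 genotype untreated and the other genotype treated.

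Nid2, a basement membrane protein, had the form of Mrvi1 at 1.61 and 1.36 against 0.06 and 0.18 without AP20187 and 0.18 and 0.11 against 0.98 and 0.68 with it, for 4.82 ± 0.49 (adjusted p 0.187). Ptger3, a prostaglandin E2 receptor, had the form of Dpt at -3.85 ± 0.50, but its other probe set gave 0.40. Ccr3, the eotaxin receptor of eosinophils, and Ccl5, a chemokine of T cells, did the same at -2.90 ± 0.51 and -2.57 ± 0.47. Ccl5 stood at 0.58 and 0.30 against 1.40 and 1.22 without AP20187, and at 1.39 and 1.64 against 0.78 and 0.51 with it. With both doubted arrays set aside, Mrvi1, Dpt, Nid2, Ptger3, Ccr3 and Ccl5 were at 3.83, -4.15, 5.34, -3.65, -2.45 and -2.28. Dpt is also on the list of stellate cell and fibroblast markers, whose median interaction over 15 genes was 0.22, opposite in sign.

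**Figure D4:**
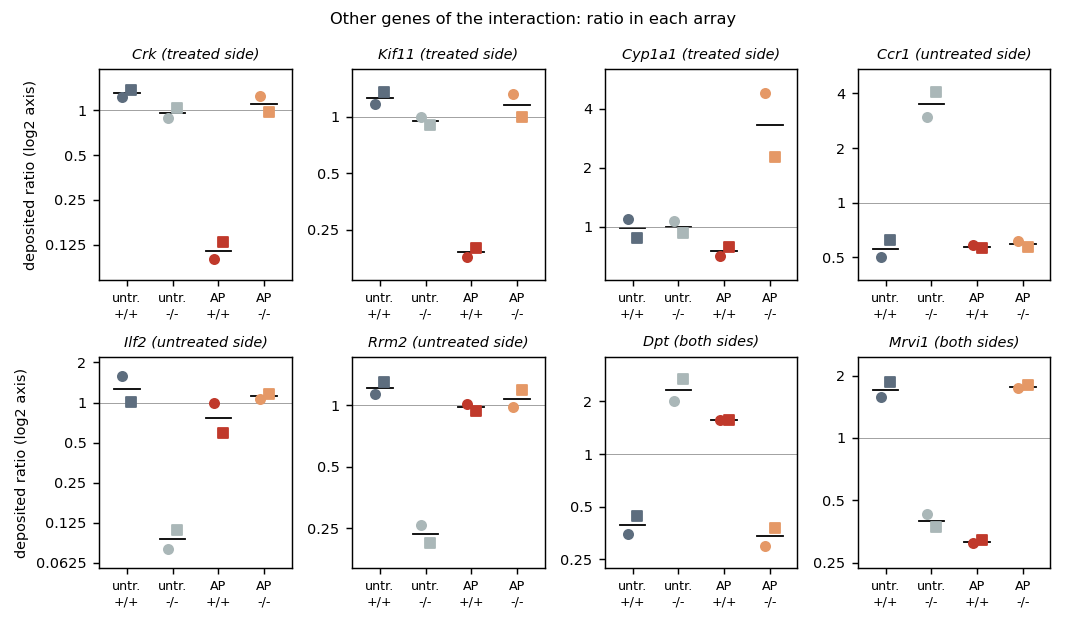
Deposited ratio (log2 axis) in each array for genes of the treated side above 0 (Crk, Kif11, Cyp1a1), the untreated side (Ccr1, Ilf2, Rrm2) and both sides (Dpt, Mrvi1); circles are replicate 1, squares replicate 2, and bars are group means. Crk and Kif11 are low only in treated Atf4+/+, Ccr1 is high only in untreated Atf4-/-, and Dpt and Mrvi1 swap bands between the genotypes.

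Cdkn1a, an inhibitor of cell division that p53 switches on, lay on both sides in another way. It stood at 0.24 and 0.35 against 0.69 and 0.56 without AP20187 and at 2.09 and 3.19 against 1.31 and 2.25 with it, so that all treated arrays were above all untreated ones, and the interaction was -1.44 ± 0.50 (unadjusted p 0.0251). Its other probe set gave -0.43. Hc, complement component 5, stood at 1.5 and 1.18 against 0.74 and 0.71 without AP20187 and 0.97 and 0.62 against 1.03 and 1.23 with it, for 1.28 ± 0.38 (unadjusted p 0.0145). Psmb4, a subunit of the proteasome, was at -1.75 ± 0.65, but its other probe sets were at 0.07 and -0.54. In the fit without both doubted arrays, Cdkn1a was at -1.78, on the untreated side, and Hc and Psmb4 were at 1.41 and -1.85.

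The side a gene was given depended on which arrays were used. Of the 106 probe sets on the treated side below 0, all 106 kept their sign and between 87 and 103 kept their side when 1 array was left out. Every other side and direction also kept all its signs. The probe sets were chosen for their interaction on these same arrays, so a kept sign is no independent check. Without both doubted arrays all 106 kept their sign, 86 kept their side and 32 kept the side together with an unadjusted p under 0.05. Nupr1, Psat1, Mthfd2, Psph, Crk and Kif11 kept their sign in all 8 of these fits, with ranges of -7.59 to -5.27, -4.0 to -2.67, -2.68 to -2.08, -1.47 to -1.28, 2.72 to 3.05 and 2.30 to 2.66.

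**Figure D5:**
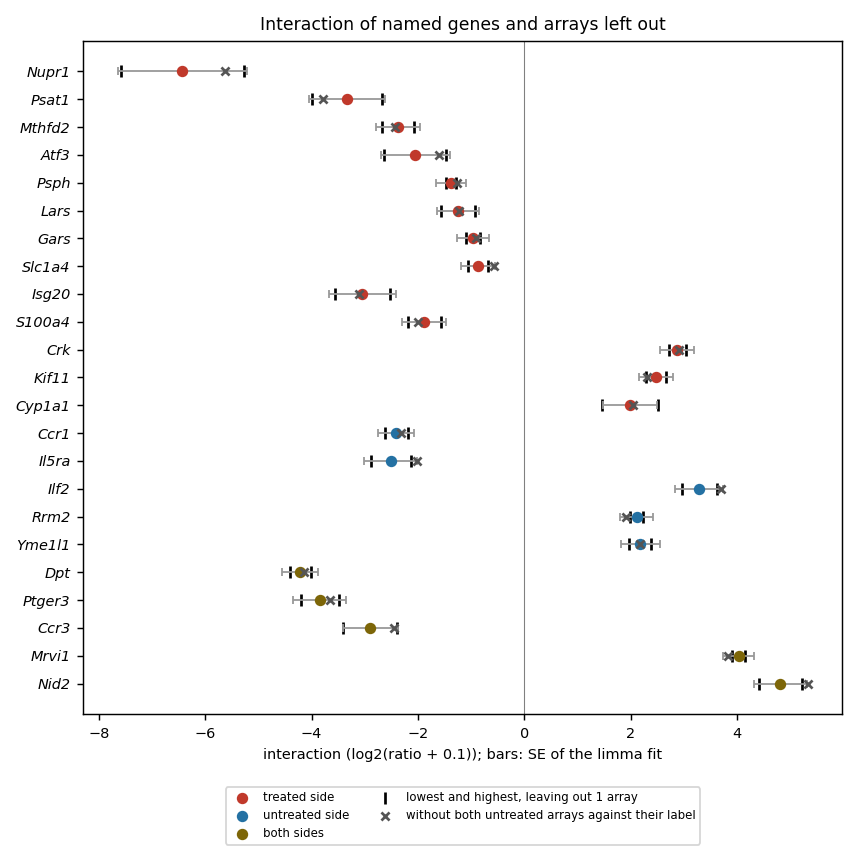
Interaction of 23 named genes in log2(ratio + 0.1) with the SE of the limma fit as the error bar; colours give the side, black ticks the lowest and highest value when 1 array is left out, and crosses the value without both untreated arrays whose Atf4 ratio stood against their label. No range crosses 0 among these genes, which were chosen on the same arrays. The widest is that of Nupr1, from -7.59 to -5.27.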

How the data were processed

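Mouse liver RNA was measured on 8 Affymetrix mouse arrays, 1 column per array in the deposited table. The values are ratios in the authors' deposited table; from the values, most rows have a median near 1, and the sources used here do not give the denominator or background correction the authors used. Since a ratio is relative to its own row, levels of different genes were not compared. The members and gene lists were chosen with earlier results of these data known.

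Groups were taken from the source names, except for untreated Atf4+/+ replicate 1, whose description alone calls it untreated. Values were turned to log2(ratio + 0.1) with no further scaling, and 4 group means were fitted to 12422 probe sets with limma 3.58.1 (R 4.3.3; lmFit, eBayes) with 4 residual degrees of freedom; this was tested on simulated data. p-values were adjusted by the Benjamini-Hochberg method over all probe sets at a threshold of 0.05. Probe sets were named from GEO's platform annotation: 10833 had 1 gene, 396 several and 1193 none. Named genes are Atf4 and Eif2ak3, the 10 with the smallest interaction p in each direction, up to 8 in each side and direction, measured known ATF4 targets, and up to 4 in each list described; from these the text takes examples. A gene's value comes from 1 probe set, chosen by row median, probe set name and spread; sex-linked genes were left out. Alternatives were other pseudocounts, scalings, filters, side rules, groupings and arrays left out. The number of arrays limits the precision.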

Additional observations from a re-analysis of the deposited data

How the results depend on the processing

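Precision was limited by 2 arrays per group, with a median SE of 0.46 for an interaction, and signal over background is unknown. At an adjusted threshold of 0.1, with cyclic loess, or among probe sets with a row median of at least 0.99, 2 probe sets passed, Mrvi1 and Dpt: their adjusted p was 0.0494 with cyclic loess (interactions 3.97 and -4.30), and 0.0348 and 0.0391 with the row median filter (4.03 and -4.22), where fewer probe sets were tested. In the other settings none passed.

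Counts at an unadjusted p under 0.05 moved more. Among probe sets with a highest ratio of at least 1.5 there were 129 below 0 and 106 above 0, with 33 on the treated and 26 on the untreated side below 0, and 25 and 31 above 0; fewer were tested. With untreated Atf4-/- replicate 1 grouped by its description, the treated side below 0 held 68 and the untreated side above 0 held 166; the cause was not tested. A factor of 3 for the sides left 69 on the treated side below 0. Without both untreated arrays that stood against their label, with 1 untreated array per genotype, the treated and untreated sides held 53 and 241 below 0 and 44 and 219 above 0. Leaving out 1 array at a time gave 258 to 491 probe sets below 0 and 259 to 579 above 0, 56 to 252 on the treated side below 0, 51 to 186 on the untreated side below 0, 49 to 320 on the treated side above 0 and 57 to 199 on the untreated side above 0. The counts of 252, 320 and 579 were those without AP20187 Atf4+/+ replicate 1, those of 56 and 199 were without an untreated Atf4-/- array (replicates 1 and 2), and those of 49 and 186 were without untreated Atf4+/+ replicate 2.

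Of the genes named here, the interaction changed sign for Atf5 (-0.53), Eif2ak3 (0.55), Igfbp1 (-0.15), Phgdh (-0.078), Shmt2 (-0.017) and Slc7a11 (-0.064) when untreated Atf4-/- replicate 1 was grouped by its description. Shmt2 was at -0.0070 with arrays centred on their medians and at -0.0084 with quantile normalization. With 1 array left out, Atf5 ranged from -0.056 to 1.36, Ddit4 from -1.59 to 0.36, Eif2ak3 from -0.75 to 0.37, Igfbp1 from -0.12 to 0.29 and Shmt2 from -0.18 to 0.23. In the other settings run the named genes kept their sign. No paired analysis was possible because the labels give the arrays no replicate numbers; the numbers used here follow accession order and only name an array.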
